A study of Homo sapiens with 12 samples.

Results

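Expression of 9 genes of the phosphoinositide 3-kinase (PI3K) step was measured by RNA-seq in 12Z cells, out of 60617 gene identifiers counted in each library. The genes were chosen by name for their place in the pathway, with earlier results of these data known. They were the class I catalytic genes PIK3CA, PIK3CB and PIK3CD, the class I regulatory genes PIK3R1, PIK3R2 and PIK3R3, the class II kinase gene PIK3C2B, the phosphatase gene INPP4B and PIK3IP1, which encodes a membrane protein that binds and inhibits PI3K. INPP4B was therefore the only phosphatase in the set.

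12Z is an immortalized line of endometriotic epithelial cells. Every culture first received the same non-targeting siRNA, and was then transiently transfected with empty pBabe vector (control cells) or with pBabe carrying PIK3CA H1047R, an activating change in the kinase domain (H1047R cells). After 4 h without serum, cells received 100 nM insulin or vehicle for 24 h, which gave 4 groups of 3 libraries, described by the study as independent experiments. All cells were of 1 line, the introduced gene was overexpressed from a plasmid on top of the chromosomal gene, and a gene count does not separate these sources.

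Class I PI3K is a dimer of a catalytic and a regulatory subunit. The regulatory subunit holds the catalytic one stable and inactive until it binds phosphotyrosines on receptors or adaptors such as the IRS proteins, and the dimer then makes the lipid PIP3, which recruits AKT to the membrane. Lipid phosphatases remove the signal, INPP4B acting on a lipid formed downstream of PIP3, while PIK3C2B works without these regulatory subunits.

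Libraries held 21483124 to 37918025 reads assigned to genes on the sequenced strand, with the 3 H1047R insulin libraries the deepest. The share of reads mapped to several places was 8.48% to 9.51% in the H1047R insulin libraries and 13.6% to 15.4% in the other 9. Keratins were abundant (KRT8 averaged 1430 CPM and KRT18 982 CPM, CPM being counts scaled to the size of the library), whereas EPCAM averaged 0.599 CPM and CDH1 1.74 CPM. VIM averaged 2010 CPM and COL1A1 2670 CPM, so the epithelial label was carried by keratins beside abundant mesenchymal transcripts. The 5 fibroblast markers summed to 4570 to 4740 CPM in the H1047R insulin libraries and 5360 to 5690 CPM in the others. All 5 passed the test between H1047R vehicle and H1047R insulin, 1 higher and 4 lower, against 9.85% and 9.80% of all genes tested. VIM went from 2040 to 2290 CPM between these groups and DCN from 76.5 to 9.19 CPM. The 7 epithelial markers summed to 3280 to 3300 CPM in the H1047R insulin libraries and 2920 to 3260 CPM in the others. The 3 endothelial markers summed to 4.92 to 5.23 CPM in the H1047R insulin libraries and 2.62 to 4.59 CPM in the others. They moved in different directions from H1047R vehicle to H1047R insulin. VWF went from 2.09 to 3.95 CPM and PECAM1 from 0.0831 to 0.451 CPM, but CDH5 from 1.31 to 0.642 CPM. In the same test 1 epithelial marker was higher and 1 lower, and 1 endothelial marker was higher and 0 lower. The part of these library differences in the results was not tested.

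In hg38 coordinates (GENCODE release 44), PIK3CA spans chr3:179148114-179240093 on the plus strand and PIK3CB chr3:138652698-138834928 on the minus strand. PIK3CD spans chr1:9629889-9729114 on the plus strand, and PIK3R3 (chr1:46040140-46133036) and PIK3C2B (chr1:204422628-204494805) lie on the minus strand of the same chromosome. PIK3R1 spans chr5:68215740-68301821 and PIK3R2 chr19:18153163-18170532, both on the plus strand. INPP4B (chr4:142023160-142847432) and PIK3IP1 (chr22:31281594-31292534) lie on the minus strand.

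Promoter windows from RefSeq (GRCh38.p14), each from 250 bases before to 50 bases after a start site, were searched on both strands for the FOXO motif GTAAACA and the AP-1 motif TGACTCA, because FOXO factors are held out of the nucleus by AKT. The FOXO letters occurred in 2 of the 26 windows of the 9 genes, against 1202 of all 35116 windows (3.42%). The AP-1 letters occurred in 0 of the 26, against 1738 windows (4.95%). The PIK3CA match ended 143 bases before the RefSeq start site and the PIK3IP1 match began 16 bases after its own. The PIK3CA match lies inside the GENCODE span given above, so the annotations place the start of PIK3CA differently. The matches are shown because these were the only windows of the set that held either motif, with 11 bases on each side, 5′ to 3′ on the strand of the gene and the match in capitals.
PIK3CA promoter, chr3:179148197-179148225, plus strand: agttcgttgttTGTTTACacgatgtgagc
PIK3IP1 promoter, chr22:31292455-31292483, minus strand: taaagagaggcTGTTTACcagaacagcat
A match is a description of the letters and does not show binding. In H1047R cells the PIK3CA count includes reads of the plasmid, so its change with insulin does not describe this promoter. In control cells the insulin differences (log2 fold change ± SE) were -0.10 ± 0.0912 for PIK3CA and -0.20 ± 0.0909 for PIK3IP1. Neither was called in the test described below.

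Differential expression was tested with the edgeR quasi-likelihood test across 22756 genes, and a gene was called at an adjusted p (FDR, Benjamini-Hochberg) under 0.001. All 9 genes averaged at least 1 count per library and were tested. Insulin in control cells raised 1 of the 9 (PIK3R3) and lowered 0, against 0.483% and 1.15% of all genes tested. With insulin in H1047R cells 3 were higher (PIK3CA, PIK3R1 and PIK3R3) and 2 lower (PIK3CD and PIK3IP1), against 9.85% and 9.80%. H1047R in vehicle raised 1 (PIK3CA) and lowered 0, against 0.141% and 0.0176%. H1047R in insulin raised 2 (PIK3CA, INPP4B) and lowered 0, against 11.4% and 12.0%. PIK3CA was carried by the plasmid, so its calls with H1047R were set by the design and say nothing about the other members. None of the others was called in vehicle. The insulin effect differed between H1047R and control cells (the interaction) for 2 genes, PIK3CA and INPP4B, both more positive in H1047R cells, against 4.58% of all genes, with 0 of the 9 more negative against 4.49%. Median log2 fold changes of the 9 genes were 0.07, -0.05, 0.00, -0.12 and -0.15 in these 5 contrasts, in the order given, and those of all genes tested were 0.00374, -0.000607, 0.00224, -0.0219 and -0.0139. The contrasts share libraries, so their values are set side by side and not counted as independent. In H1047R cells PIK3CA itself averaged 235 CPM in vehicle and 721 CPM with insulin. Insulin in H1047R cells and the interaction therefore compare libraries that differ in insulin and in PIK3CA level. H1047R in vehicle and H1047R in insulin likewise rest on unlike PIK3CA levels, 2.66-fold and 8.72-fold over control. Insulin and PIK3CA level were not separated, for the 9 genes or for the lists below.

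**Figure D1:**
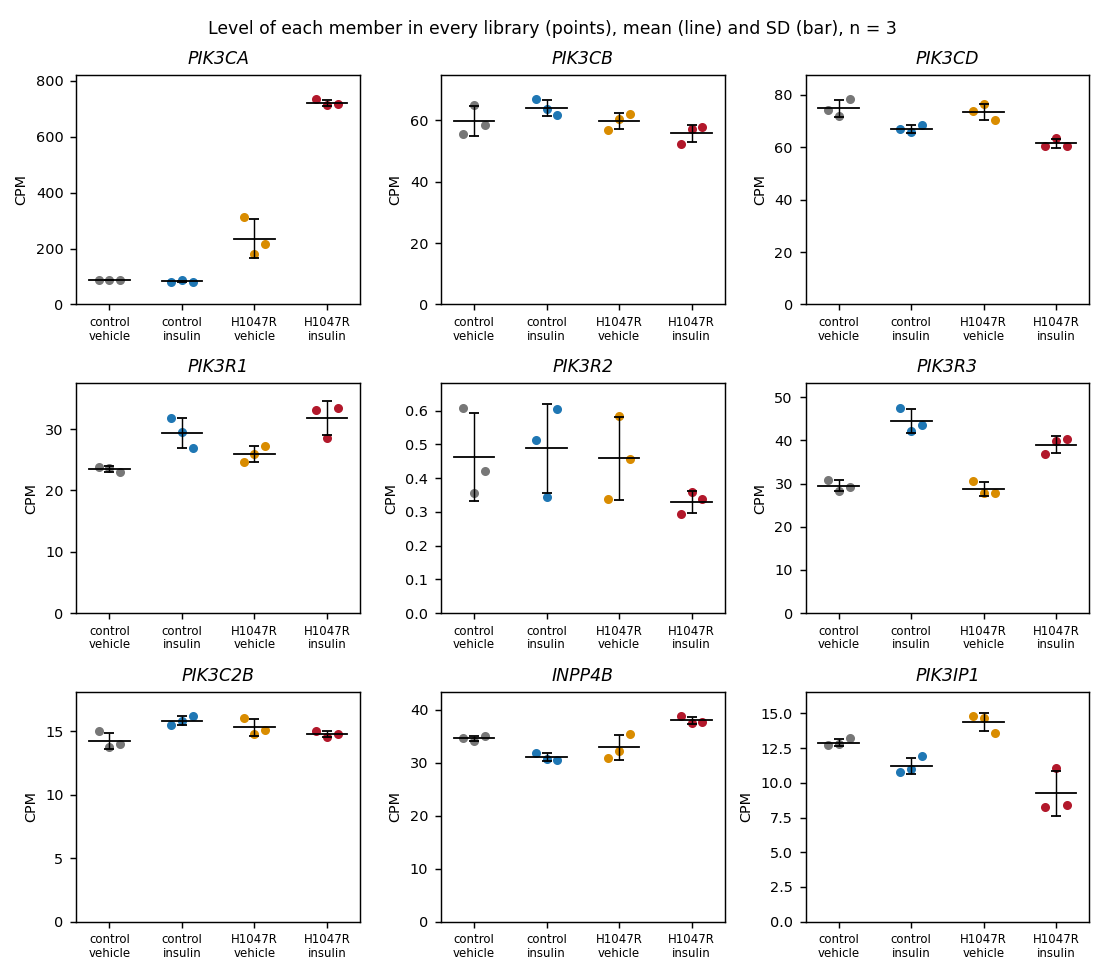
CPM of each of the 9 genes (one panel per gene, vertical axes from 0) in the 12 libraries, by group, with the group mean as a line and the SD as a bar (n = 3). PIK3CA stood far higher in H1047R cells, PIK3R3 was higher with insulin in both kinds of cells, INPP4B was highest in the 3 H1047R insulin libraries (37.5 to 38.8 CPM), and PIK3R2 stayed under 0.61 CPM.

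PIK3CA, the catalytic gene carried by the plasmid, checked the labels. Its level was 88.2 to 89.0 CPM in the control libraries given vehicle and 80.9 to 85.9 CPM in those given insulin, but 312, 180 and 215 CPM in H1047R vehicle and 734, 714 and 715 CPM in H1047R insulin. Each H1047R library was above every control library. H1047R raised it by 1.41 ± 0.0886 (log2 fold change ± SE) in vehicle (adjusted p = 2.73e-14) and by 3.12 ± 0.0905 in insulin (adjusted p = 2.68e-27). Within H1047R cells it was higher with insulin by 1.62 ± 0.0839 (adjusted p = 5.33e-19). In control cells, which carried the empty vector, the difference was -0.10 ± 0.0912 (adjusted p = 0.672). The interaction was 1.72 ± 0.123 (adjusted p = 3.81e-14). Plasmid uptake by each culture is not known from these data. Uneven transfection therefore cannot be told apart from an effect of insulin on PIK3CA in H1047R cells, and neither was tested.

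The libraries keep the strand of each read, and PIK3CA reads on the strand opposite to the gene also rose. Opposite-strand reads numbered 23, 8 and 13 in the control vehicle libraries and 30, 27 and 11 in the control insulin libraries. They numbered 403, 195 and 242 in H1047R vehicle and 2187, 2514 and 2704 in H1047R insulin, so that the H1047R groups did not overlap each other or the controls. As a share of the PIK3CA reads of both strands they were 0.323% to 1.34% in the 6 control libraries, 4.05% to 5.16% in H1047R vehicle and 8.83% to 8.93% in H1047R insulin.

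Relative to the mean of the control group with the same treatment, the opposite strand made up 6.84%, 7.11% and 6.97% of the added PIK3CA reads in H1047R vehicle. It made up 9.78%, 9.76% and 9.88% in H1047R insulin. The share thus varied little between libraries of a group, although the added PIK3CA level in H1047R vehicle ranged from 91.5 to 223 CPM. Over all genes the opposite-strand share was 6.31% to 6.54% in every library.

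Among the other members, PIK3CD had 7.05% to 9.20% of its reads on the opposite strand and PIK3IP1 2.83% to 9.60%, in each case in control as well as H1047R cells. The annotation places CLSTN1 over 1.98% of the PIK3CD exon length and PIK3IP1-DT over 0.946% of that of PIK3IP1, both on the opposite strand. KCNMB3 covers 19.8% of the PIK3CA exon length on the opposite strand, and its own level was 1.35 ± 0.13, 1.94 ± 0.351, 1.61 ± 0.164 and 1.65 ± 0.103 CPM (SD, n = 3) without and with insulin in control cells and without and with it in H1047R cells. The source of the opposite-strand PIK3CA reads was not tested.

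**Figure D2:**
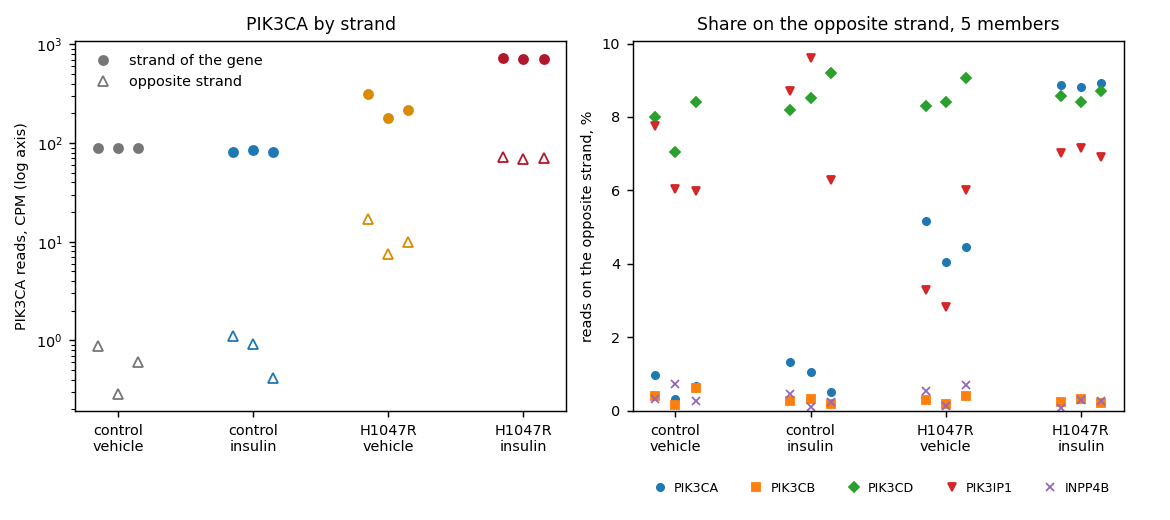
Left, PIK3CA reads in CPM (log axis) on the strand of the gene (filled circles) and on the opposite strand (open triangles) in each of the 12 libraries. Right, opposite-strand reads as a percentage of both strands for 5 members, where PIK3CA went from at most 1.34% in control cells to 8.83% to 8.93% in H1047R insulin while PIK3CB and INPP4B stayed near 0.

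PIK3CB encodes the catalytic subunit that, like PIK3CA, is present in most tissues. It had 55.5, 65.1 and 58.4 CPM in control cells given vehicle, 66.9, 63.6 and 61.7 CPM in those given insulin, 56.7, 60.6 and 62.0 CPM in H1047R vehicle and 52.4, 57.1 and 57.7 CPM in H1047R insulin. Only the 2 insulin groups did not overlap, with H1047R insulin lower. That difference was -0.20 ± 0.0532 (adjusted p = 0.00224) and did not pass the threshold, and the gene was called in 0 of the 5 contrasts. Its H1047R difference in vehicle had a 95% interval of -0.11 to 0.11 on the log2 scale.

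PIK3CD, the catalytic gene best known from leukocytes, was readily detected in these cells. It had 74.0, 72.0 and 78.3 CPM in control vehicle and, with insulin, 67.0, 65.6 and 68.5 CPM in the same cells. It had 73.9, 76.4 and 70.3 CPM in H1047R vehicle and 60.4, 63.5 and 60.5 CPM in H1047R insulin. In both kinds of cells every insulin library was below every vehicle library.

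With insulin in H1047R cells PIK3CD changed by -0.26 ± 0.0467 and was called (adjusted p = 1.84e-05). In control cells the difference was -0.16 ± 0.0471 and was not called (adjusted p = 0.0392), and the interaction, -0.10 ± 0.0663 (adjusted p = 0.323), was not called either. Leukocyte markers were low: 2 of 7 averaged at least 1 CPM (CORO1A and CD14), the defining PTPRC averaged 0.876 CPM, and CD3E had 0 counts in all 12 libraries. The 7 markers summed to 9.15 to 13.8 CPM, that is 10.7 to 11.6 CPM in control vehicle, 12.0 to 13.8 CPM in control insulin, 9.15 to 10.5 CPM in H1047R vehicle and 11.4 to 12.1 CPM in H1047R insulin.

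Among the regulatory genes, PIK3R3 had the largest insulin difference of the 3 in control cells. It encodes a short regulatory subunit that lacks the long front part of the PIK3R1 product. It had 30.9, 28.3 and 29.3 CPM in control cells given vehicle, 47.6, 42.3 and 43.5 CPM in those given insulin, 30.6, 27.9 and 27.9 CPM in H1047R vehicle and 36.8, 39.8 and 40.4 CPM in H1047R insulin. Insulin libraries were all above vehicle libraries, whichever plasmid the cells carried.

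Insulin raised PIK3R3 by 0.59 ± 0.0591 in control cells (1.51-fold, adjusted p = 1.34e-09) and by 0.44 ± 0.059 in H1047R cells (1.36-fold, adjusted p = 6.92e-08). The interaction was -0.15 ± 0.0837 (adjusted p = 0.222), with a 95% interval of -0.32 to 0.02, so a smaller response in H1047R cells was not established. H1047R changed it by -0.03 ± 0.0624 in vehicle (adjusted p = 0.891). In insulin the difference was -0.19 ± 0.0557 (adjusted p = 0.00644), which was not called although the 2 insulin groups did not overlap.

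PIK3R1 encodes the main regulatory subunit and, from other promoters, shorter forms, which a gene count does not separate. It had 23.8, 23.7 and 23.0 CPM in control cells given vehicle, 31.8, 29.6 and 26.9 CPM in those given insulin, 24.7, 25.9 and 27.2 CPM in H1047R vehicle and 33.2, 28.6 and 33.5 CPM in H1047R insulin. As for PIK3R3, insulin libraries stood above vehicle libraries in both kinds of cells.

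The insulin difference of PIK3R1 was 0.29 ± 0.0651 in H1047R cells and passed the threshold (adjusted p = 0.000359). It was 0.32 ± 0.0676 in control cells and missed it (adjusted p = 0.00145), though it passed in 7 of 21 alternative analyses. The interaction of -0.03 ± 0.094 (adjusted p = 0.878, 95% interval -0.22 to 0.16) did not separate the 2 responses. The call in H1047R cells was lost without H1047R vehicle replicate 2 (adjusted p = 0.00202), H1047R insulin replicate 1 (0.00439) or H1047R insulin replicate 3 (0.00699). H1047R changed PIK3R1 by 0.14 ± 0.0694 in vehicle and 0.11 ± 0.0633 in insulin (adjusted p = 0.425 and 0.187).

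PIK3R2, the third regulatory gene, could hardly be measured. It had 8 to 16 counts per library (0.294 to 0.609 CPM), and the groups overlapped in every contrast. The annotation holds a readthrough gene, ENSG00000268173 (chr19:18153158-18178117, plus strand), which begins beside PIK3R2 and shares 76.4% of its exon length on the same strand. Only 1221 of 5163 exon bases belong to PIK3R2 alone, and reads that fall in exons of 2 genes are set aside as ambiguous by this kind of counting. The readthrough gene itself had 0 to 2 counts per library. The PIK3R2 values are therefore not a measure of the level of its transcript, and its 95% intervals reached from -1.30 to 0.22 for H1047R in insulin.

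PIK3R3 has a readthrough partner of the same kind, P3R3URF-PIK3R3, which shares 17.5% of its exon length and had 0 counts in all 12 libraries. Here 6105 of 7397 exon bases were not shared, so most of the gene could be counted. The other 7 members shared no exon base with a gene on the same strand.

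**Figure D3:**
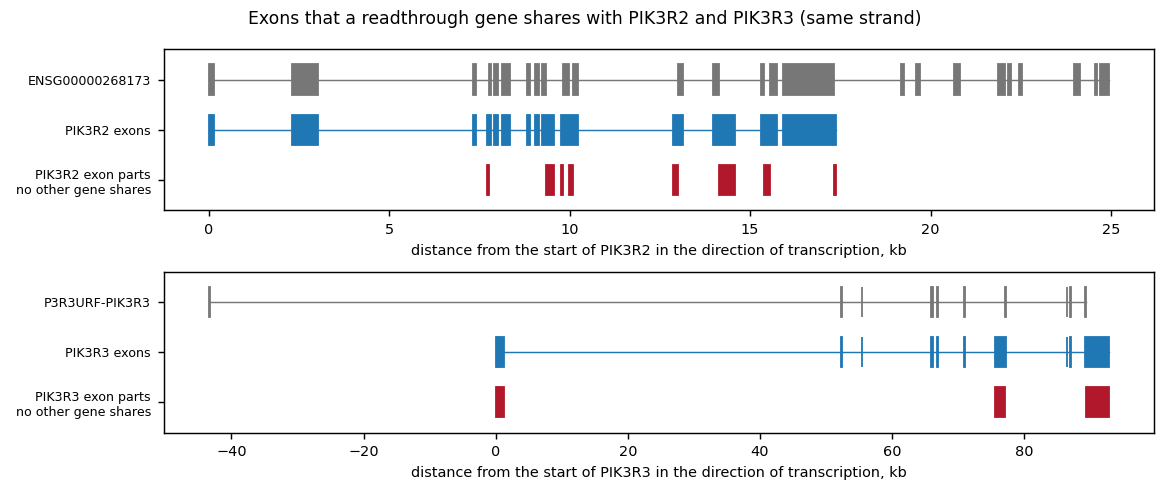
Exons (boxes) of PIK3R2 (top) and PIK3R3 (bottom), of the readthrough gene that overlaps each on the same strand, and the exon parts that no other gene shares, by distance from the gene start in kb. The shared parts take up most of PIK3R2, where 23.6% of the exon length is left, and little of PIK3R3, where 82.5% is left.

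PIK3C2B, the class II kinase gene, was called in 0 of the 5 contrasts. It had 15, 13.8 and 14 CPM in control cells given vehicle, 15.5, 15.8 and 16.2 CPM in those given insulin, 16.1, 14.8 and 15.1 CPM in H1047R vehicle and 15, 14.6 and 14.8 CPM in H1047R insulin. Differences ranged from -0.10 ± 0.0693 (H1047R in insulin, adjusted p = 0.297) to 0.15 ± 0.0726 (insulin in control cells, adjusted p = 0.301), and the interaction was -0.20 ± 0.101 (adjusted p = 0.18).

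INPP4B, the phosphatase gene, had 34.6, 34.1 and 35.1 CPM in control vehicle and, with insulin, 31.9, 30.7 and 30.6 CPM in the same cells. It had 30.9, 32.3 and 35.5 CPM in H1047R vehicle and 38.8, 37.5 and 37.7 CPM in H1047R insulin. Every control insulin library was below every control vehicle library, and every H1047R insulin library was above every other library.

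H1047R raised INPP4B in insulin by 0.29 ± 0.0546 (1.22-fold, adjusted p = 2.91e-05), and its difference in vehicle was -0.07 ± 0.0571 (adjusted p = 0.681). These differences belong to unlike PIK3CA levels, 8.72-fold over control in insulin and 2.66-fold in vehicle. The insulin difference was -0.15 ± 0.0568 in control cells and 0.21 ± 0.055 in H1047R cells, and neither was called (adjusted p = 0.114 and 0.00252). The test of the difference between these responses passed at 0.36 ± 0.079 (adjusted p = 0.000576). That interaction was the least stable call of the set: it missed the threshold without any 1 of 9 of the 12 libraries (all 3 control vehicle libraries, control insulin replicates 2 and 3, H1047R vehicle replicate 2 and all 3 H1047R insulin libraries), with adjusted p up to 0.00248, while its size was 0.35 to 0.37 in those fits.

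PIK3IP1, the inhibitor, had 12.7, 12.8 and 13.2 CPM in control vehicle and, with insulin, 10.8, 11 and 11.9 CPM in the same cells. It had 14.8, 14.7 and 13.6 CPM in H1047R vehicle and 8.23, 11.1 and 8.40 CPM in H1047R insulin. Insulin libraries were below vehicle libraries in both kinds of cells, and H1047R insulin replicate 2 lay within the range of control insulin.

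With insulin in H1047R cells PIK3IP1 changed by -0.64 ± 0.0892 and was called (0.644-fold, adjusted p = 1.87e-07). In control cells the difference was -0.20 ± 0.0909 (adjusted p = 0.243). The interaction of -0.43 ± 0.127 was not called (adjusted p = 0.0103), nor was H1047R in insulin at -0.28 ± 0.0909 (adjusted p = 0.0136). Both were called without H1047R insulin replicate 2, at -0.59 (adjusted p = 0.000375) and -0.43 (adjusted p = 0.000241). In vehicle the H1047R difference was 0.16 ± 0.0892 (adjusted p = 0.5).

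**Figure D4:**
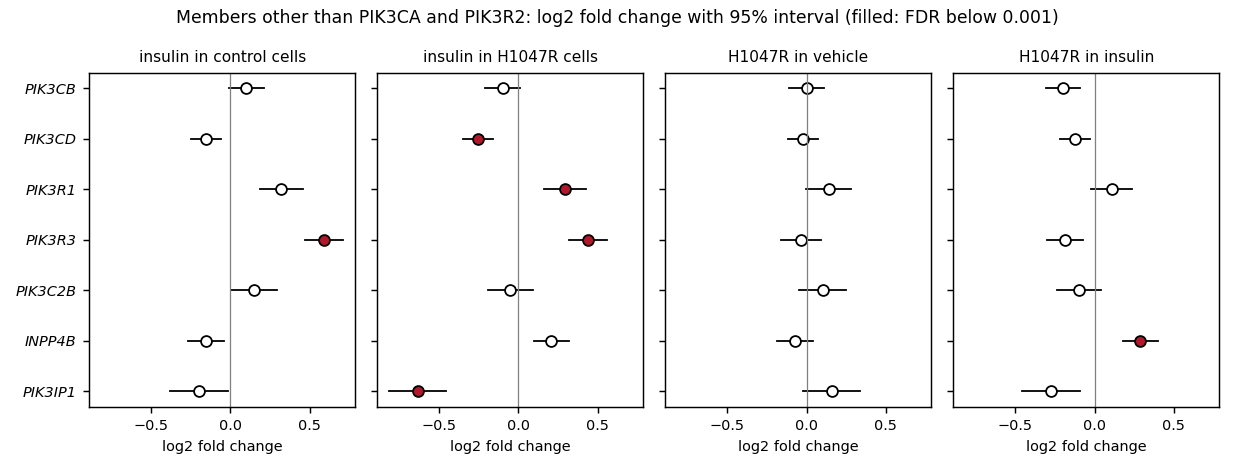
Log2 fold change (points) with 95% intervals (lines) of 7 members in 4 contrasts, filled points being called at an FDR under 0.001. PIK3CA and PIK3R2 are left out, the first for its scale and the other for its low counts. PIK3R3 is filled under insulin in both kinds of cells, and no point is filled for H1047R in vehicle, where all 7 intervals lie between -0.19 and 0.34.

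Levels were compared between genes as CPM per kb of exon not shared with another gene. In control vehicle the order was PIK3CD (7.82 ± 0.337 CPM per kb, SD, n = 3), PIK3CB (7.61 ± 0.632), PIK3CA (5.15 ± 0.0224), PIK3R3 (4.83 ± 0.212), PIK3IP1 (3.39 ± 0.0745), INPP4B (2.37 ± 0.0333), PIK3R1 (1.44 ± 0.0269) and PIK3C2B (1.40 ± 0.0646). On this length PIK3CD and PIK3CB did not differ beyond their spread, nor did PIK3R1 and PIK3C2B. With the length of the canonical transcript instead, PIK3CA (9.57 CPM per kb) and PIK3CB (9.54) were level, below PIK3CD (13.8), and PIK3R1 (3.37) was above PIK3C2B (1.86). The order of PIK3CA, PIK3CB and PIK3CD, and that of PIK3R1 and PIK3C2B, thus depends on the length used.

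PIK3CA made up 25.1% ± 0.751 (SD, n = 3) of the summed level of the 3 catalytic genes in control vehicle and 24.1% ± 0.886 in control insulin. It made up 46.6% ± 7.52 in H1047R vehicle and 75.6% ± 0.949 in H1047R insulin. PIK3CB went from 37.0% ± 2.32 in control vehicle to 12.8% ± 0.721 in H1047R insulin and PIK3CD from 38.0% ± 1.83 to 11.6% ± 0.343. A share falls when another member of the sum rises, so these values are to be read beside the levels of PIK3CB and PIK3CD above. All PIK3CA reads were divided by the exon length of the chromosomal gene, also those of the plasmid, whose insert length was not used. The PIK3CA level per kb and its share in H1047R cells are therefore not on the same scale as in control cells.

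PIK3R3 supplied most of the countable regulatory signal, at 72.7% ± 0.567 in control vehicle and 76.8% ± 0.0546 in control insulin. PIK3R1 supplied 21.7% ± 0.984 and 19.0% ± 1.15 in the same groups. Since PIK3R2 could hardly be counted, these are shares of what the counting left.

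The ratio of summed catalytic to summed regulatory level in control cells was 3.10 ± 0.228 without insulin and 2.11 ± 0.113 with it, and the 2 groups did not overlap. It was 4.34 ± 0.474 in H1047R vehicle and 6.45 ± 0.267 in H1047R insulin. Insulin thus went with a lower ratio in control cells, where the regulatory sum was 6.65 ± 0.329 CPM per kb in vehicle and 9.49 ± 0.605 in insulin, and with a higher ratio in H1047R cells, where the regulatory sum was 6.68 ± 0.103 and 8.61 ± 0.324. PIK3R2 could hardly be counted, so the regulatory sums and the ratios cover what the counting left and not the whole class. No test was run on these ratios, which describe transcripts and not protein. Those of H1047R cells carry the limit of length given above for PIK3CA, so their size is not comparable with that in control cells.

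**Figure D5:**
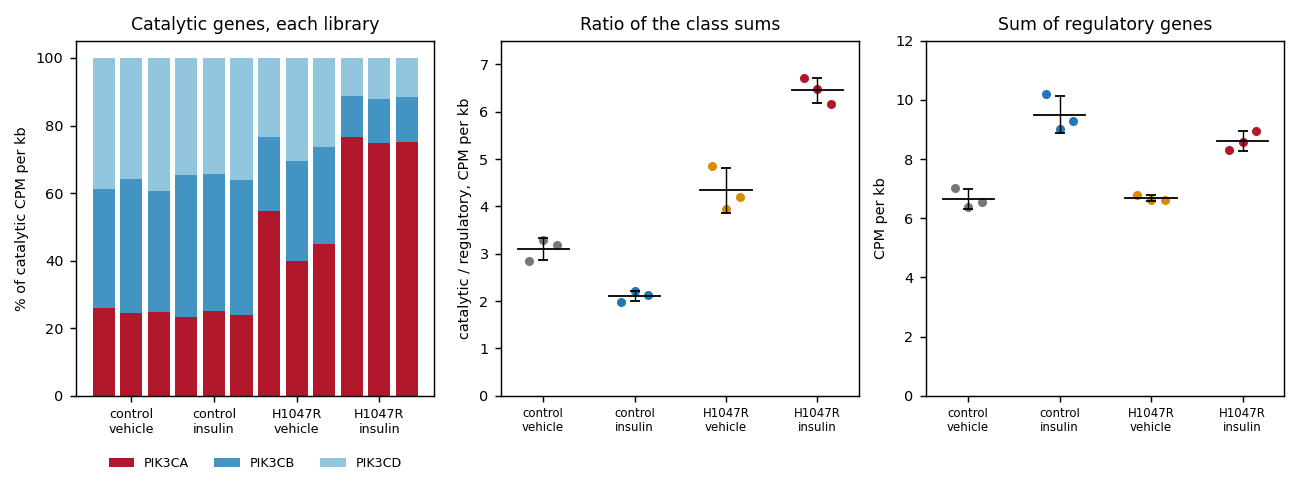
Left, share of PIK3CA, PIK3CB and PIK3CD in the summed CPM per kb of the catalytic genes in each library (stacked bars). Middle and right, the ratio of catalytic to regulatory sums and the regulatory sum itself in each library (points), with mean and SD (n = 3). The ratio is lowest in control insulin (1.99 to 2.21) and highest in H1047R insulin (6.17 to 6.71), while the regulatory sum is higher in both insulin groups. The regulatory sum leaves out most of PIK3R2, which could hardly be counted.

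The genes with the most similar pattern were found among 13301 genes averaging at least 1 CPM, by the root-mean-square difference of centred log2 CPM over the 12 libraries. For PIK3CA they were ATF3 (0.247), IFIT2 (0.25) and PLA2G4C (0.256). For PIK3R3 they were ARHGEF3 (0.0889), ANKRD34A (0.0943) and PSAT1 (0.0943), and for PIK3R1 PLEKHA8 (0.0631), DDHD1 (0.0683) and XPOT (0.0762). For PIK3CD they were CLCN4 (0.0337), IMPDH2 (0.0413) and WIPI2 (0.0417). For INPP4B they were SETD1A (0.0493), BAG1 (0.0531) and ITPR3 (0.0544), and for PIK3IP1 RAMP2 (0.077), TMEM198B (0.0818) and TBC1D8 (0.106). The libraries share group structure, so a small difference here only says that 2 genes were high and low in the same groups.

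Other genes of the pathway were counted in lists, to be read against all genes tested, of which 0.483% rose and 1.15% fell with insulin in control cells, 9.85% and 9.80% with insulin in H1047R cells, and 11.4% and 12.0% with H1047R in insulin. Of 8 other PI3K subunits and adaptors, 7 were tested, and 1 was called: PIK3AP1, an adaptor for PI3K, rose with H1047R in insulin by 0.69 ± 0.158 (adjusted p = 0.000435). Of 22 other phosphoinositide phosphatases, 3 rose and 1 fell with insulin in H1047R cells, 2 rose and 3 fell with H1047R in insulin, and 0 were called with insulin in control cells or with H1047R in vehicle. With 22 genes these counts are close to the shares of all genes. SYNJ2, an inositol phosphatase of membrane traffic, rose with insulin in H1047R cells by 0.44 ± 0.0475 (adjusted p = 4.49e-10), and INPP5E, a phosphatase of the primary cilium, by 0.28 ± 0.059 (adjusted p = 0.000137). FIG4, a lipid phosphatase of endosomes, changed by -0.25 ± 0.0564 (adjusted p = 0.000435). For SYNJ2 and INPP5E the interaction passed as well, at 0.57 ± 0.0685 and 0.38 ± 0.0859 (adjusted p = 2.38e-08 and 0.000787).

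Of 14 genes that make the lipid substrates, 2 rose and 2 fell with insulin in H1047R cells and 0 were called with insulin in control cells. With H1047R in insulin 1 rose and 1 fell. With 14 genes, the counts with insulin in H1047R cells are near the 9.85% and 9.80% of all genes. PI4KB, which makes a precursor lipid at the Golgi, rose by 0.35 ± 0.0441 (adjusted p = 1.8e-08) and CDIPT, the phosphatidylinositol synthase, fell by 0.41 on the log2 scale (adjusted p = 1.9e-08). CDS2, which makes a precursor of phosphatidylinositol, changed by -0.19 ± 0.0405 (adjusted p = 0.000196). Of 16 kinases and phosphatases of the AKT step, 0 rose and 1 fell with insulin in control cells, and 3 rose and 1 fell in H1047R cells. With H1047R in insulin 2 rose and 3 fell. The shares of all genes were 0.483% and 1.15% with insulin in control cells and 9.85% and 9.80% in H1047R cells. The gene that fell in control cells was SGK1, a kinase related to AKT, at -0.31 ± 0.0446 in control cells (adjusted p = 4.12e-06) and 0.45 ± 0.0429 in H1047R cells (adjusted p = 2.13e-11), with an interaction of 0.76 ± 0.0618 (adjusted p = 1.3e-12). TRIB3, a pseudokinase that binds AKT, rose in H1047R cells by 0.94 ± 0.0535 (adjusted p = 9.62e-18). MAPKAP1, a subunit of the mTOR complex that phosphorylates AKT, changed by -0.37 ± 0.045 (adjusted p = 8.41e-09).

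The last list was drawn up as receptors and adaptors that recruit class I PI3K. It also held genes such as GRB10, GRB14 and PTPN1, which need not recruit PI3K themselves. It had most calls in control cells: 5 of 12 fell with insulin and 0 rose, against 1.15% and 0.483% of all genes. GAB2 changed by -0.56 ± 0.0799, IRS2 by -0.50 ± 0.0769 and IGF1R by -0.48 ± 0.0452 (adjusted p = 3.66e-06, 1.2e-05 and 4.35e-10). In H1047R cells 2 rose and 4 fell with insulin (9.85% and 9.80% of all genes), and 3 rose and 2 fell with H1047R in insulin (11.4% and 12.0%). GRB10, an adaptor that binds the insulin receptor, rose with insulin in H1047R cells by 1.76 ± 0.0733 (3.38-fold, adjusted p = 6.31e-22), with an interaction of 1.66 ± 0.11 (adjusted p = 4.19e-15). ERBB3, a receptor that recruits PI3K directly, changed by -0.96 ± 0.0671 (adjusted p = 4.42e-15) and GAB2 by -0.70 ± 0.0791 (adjusted p = 1.59e-09). IRS1, the insulin receptor substrate, changed by -0.34 ± 0.0609 with insulin in control cells (adjusted p = 0.000177) and by 0.34 ± 0.0573 in H1047R cells (adjusted p = 7.55e-06), and the interaction was 0.68 ± 0.0836 (adjusted p = 4.21e-08). Median log2 fold changes of the 5 lists, in the order given, were 0.033, 0.0492, 0.0193, -0.0362 and -0.274 for insulin in control cells and 0.175, -0.000474, 0.0912, -1.58e-05 and -0.0776 for insulin in H1047R cells, beside 0.00374 and -0.000607 for all genes. In the first list PIK3CG, PIK3R5 and PIK3R6 averaged at most 0.234 CPM in any group, and its median of 0.175 is the value of PIK3R6 (95% interval -1.02 to 1.37), so that median says little. In H1047R vehicle against control vehicle, 0 genes of these 5 lists were called, and PIK3CA was the only one of the 9 members called. Of all genes tested, 0.141% were higher and 0.0176% lower in that contrast, so 0 calls in lists of this size are near the background.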

How the data were processed

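RNA was taken from 12 cultures of 12Z cells, and 500 ng of RNA per culture went into a library kit that keeps the strand. Reads were trimmed (cutadapt, Trim Galore) and aligned to hg38 with STAR by the authors, who deposited raw counts per gene for each strand setting. The study's methods name a mouse GENCODE release, so the human annotation release is unclear, and tool versions were not stated in what was used here. The reverse-strand counts were used, and the forward-strand counts gave the opposite-strand reads. Summary rows (unmapped, multimapping, no feature, ambiguous) were left out of library totals.

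Genes with a mean of 1 count or more over the libraries entered a fit with edgeR 4.0.16 (R 4.3.3), with TMM scaling and 1 model for all 12 libraries with 8 residual degrees of freedom. P-values were adjusted by Benjamini-Hochberg over the 22756 genes tested in each contrast, and calls were made at 0.001, the threshold the study used. The study used DESeq2 with independent hypothesis weighting. The fit was tested on simulated counts first. Intervals are 95%. Exon lengths came from GENCODE release 44, which may differ from the authors' annotation, and promoters from RefSeq.

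The 9 members and the gene lists were chosen with earlier results of these data known. All 9 members are named in every contrast, and the rule for each list was up to 3 of the called genes that changed most per contrast, of which the text gives those of the insulin contrasts first and not all of the others. IRS1 in the 2 insulin contrasts was named after its values were seen. Within every group, pairs of libraries differed beyond counting noise (chi-square per degree of freedom 2.70 to 5.90). Alternatives were another scaling (DESeq2 size factors, library totals), DESeq2 1.42.0, other filters on low counts, unstranded counts, only the groups of a contrast, a replicate block, each library left out in turn and, added after the data were seen, PIK3CA left out of scaling and the canonical length.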

Additional observations from a re-analysis of the deposited data

Results flagged for a closer look

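The insulin effect differed between H1047R and control cells for 2 of the 9 genes by the edgeR test of that difference. Of all genes tested, 4.58% were called higher and 4.49% lower. For PIK3CA, the gene on the plasmid, the difference was 1.72 on the log2 scale (adjusted p = 3.81e-14). For INPP4B it was 0.36 (adjusted p = 0.000576), a call that was lost in 9 of 20 alternative analyses.

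Reads on the strand opposite to PIK3CA, which enter no contrast of the main fit, averaged 11.5 CPM in H1047R vehicle and 70.2 CPM in H1047R insulin. The control libraries had 0.286 to 1.10 CPM. Groups of 3 libraries were too small for the check of single libraries that stand apart.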

How the results depend on the processing

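None of the log2 fold changes of the 9 genes that passed the threshold changed sign under any alternative. The count of members called for insulin in control cells was 1 and became 2, PIK3R1 joining PIK3R3, with no filter on low counts (adjusted p = 8.94e-05), with counts taken without regard to strand (0.000901) and with only the groups of the contrast (0.000332). Leaving out single libraries gave 1 to 2 members called for insulin in control cells and 1 to 2 for the interaction, where INPP4B was lost. PIK3R1 was the gain in control cells, without control insulin replicate 3, H1047R vehicle replicate 1 or 3, or H1047R insulin replicate 2. INPP4B also passed for insulin in H1047R cells with library totals only (adjusted p = 0.000494), with no filter (0.000551) and without H1047R vehicle replicate 3 (0.000452). The replicate block changed no member's call, with 1, 5, 1, 2 and 2 members called in the 5 contrasts as without it, and 3 of 12 libraries correlated best with their own number. Replicate numbers did not pair the libraries: the 18 same-number pairs had correlations of their deviations from group means of -0.058 to 0.0873. Over all genes, H1047R in vehicle gave 32 higher and 4 lower calls, against 13 and 5 with DESeq2, 6 and 0 when 1 CPM was required in 3 libraries, and 99 and 53 without a filter. The stricter filter also removed PIK3R2. The shares within a class moved with the length used: PIK3CA made up 75.6% of the catalytic level in H1047R insulin, 86% with no division by length and 79.4% with canonical lengths. Both lengths are those of the chromosomal gene and not of the plasmid insert. Counting limits PIK3R2 (8 to 16 counts) most. P-values rest on 3 cultures per group of 1 cell line.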

Other observations

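Of 8 genes beside PIK3CA on chromosome 3, 0 were higher in any of the 5 contrasts, and with so few genes 0 is near the background shares. With H1047R in vehicle 0 were called, against 0.141% higher and 0.0176% lower of all genes tested. With H1047R in insulin 4 were lower, against 12.0% of all genes (11.4% were higher), among them ZMAT3 (-0.84 ± 0.0784, adjusted p = 9.12e-12 by edgeR), MFN1 (-0.34 ± 0.0414, adjusted p = 5.06e-09) and GNB4 (-0.31 ± 0.0402, adjusted p = 2.81e-08). ZMAT3 encodes a zinc finger RNA-binding protein, MFN1 a protein of mitochondrial fusion and GNB4 a G protein subunit. With insulin in H1047R cells 2 were lower, against 9.80% of all genes (9.85% were higher), ZMAT3 (-0.47 ± 0.0809, adjusted p = 7.21e-06) and MFN1 (-0.17 ± 0.0419, adjusted p = 0.000899).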
